A study of Rattus norvegicus with 11 samples.

Results

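Calcineurin is the phosphatase that reads intracellular calcium, and 10 genes of its subunits, its regulators and the transcription factors it controls are described here in rat fat. The genes are Ppp3ca, Ppp3cb and Ppp3r1 (subunits), Nfatc1 and Nfatc3 (NFAT factors), Rcan1, Rcan2 and Rcan3 (regulators of calcineurin), and Chp1 and Chp2 (calcineurin-like EF-hand proteins). They were taken by symbol from a table of 25274 genes, each symbol stood on 1 row, and all 10 passed the low-count filter that left 12846 genes for testing. Retroperitoneal white adipose tissue came from 11 female Wistar rats without ovaries, 1 RNA library per rat. At 10 weeks of age they were put on western diet, were ovariectomized after 6 weeks of it, and then received degarelix, a blocker of the gonadotropin-releasing hormone receptor, and an osmotic pump. The pumps of 5 rats delivered follicle-stimulating hormone at 6 µg per kg per day (degarelix plus FSH), and those of 6 rats held vehicle (degarelix only). After 12 days of limited and 7 days of free feeding and a 4 h fast, tissue was taken at 19 weeks of age. The comparison asks what FSH does to fat once the ovaries and the animals' own gonadotropin drive are gone. Every animal lacked ovaries and had received degarelix, so neither group stands for intact rats.

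Calcineurin is a heterodimer of a catalytic A subunit and a small calcium-binding B subunit, and calcium-loaded calmodulin switches it on. Active calcineurin strips phosphates from the NFAT factors, which then enter the nucleus, where kinases such as those of the GSK3, CK1 and DYRK families send them out again. RCAN proteins dock on the catalytic subunit and restrain it, and in human and mouse cells Rcan1 is itself switched on by NFAT from an internal promoter, which closes a feedback loop. CHP proteins resemble the B subunit, and they are best known as partners of sodium/proton exchangers. In mouse preadipocytes active calcineurin holds back differentiation into fat cells.

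The 11 libraries held 13163021 to 23694602 counts. Adipocyte genes dominated them in both groups: Adipoq, the adiponectin gene, averaged 11379 ± 1807 CPM (counts scaled to a common library size, after edgeR's TMM factors) with FSH and 11162 ± 863 CPM with degarelix only (SD, n = 5 and n = 6). One library stood apart. FSH replicate 3 held 64.4 CPM of Sox10, a transcription factor of Schwann cells, where the other 10 libraries held at most 4.80 CPM. The log2 changes of Rcan1, Chp2 and Nfatc4 are also given without it.

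The 10 genes were proposed with the FSH comparison already known, in which Rcan1 and Chp2 had passed its threshold. Their differences between the groups are therefore given as a description, without a test. In edgeR's quasi-likelihood fit over all 12846 genes, the share of genes past an adjusted p of 0.05 was 2.27%, made up of 1.21% higher with FSH and 1.07% lower. Of the 10 genes, 2 were past that threshold, Chp2 as higher and Rcan1 as lower, and nothing is read from this count because the comparison chose the genes. The groups did not overlap at these 2 genes, and they did not overlap at 4.34% of all genes tested. The other 8 genes had log2 changes (degarelix plus FSH over degarelix only) between -0.23 and 0.26. In bulk tissue, fewer cells of a type and less RNA per cell cannot be told apart.

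**Figure D1:**
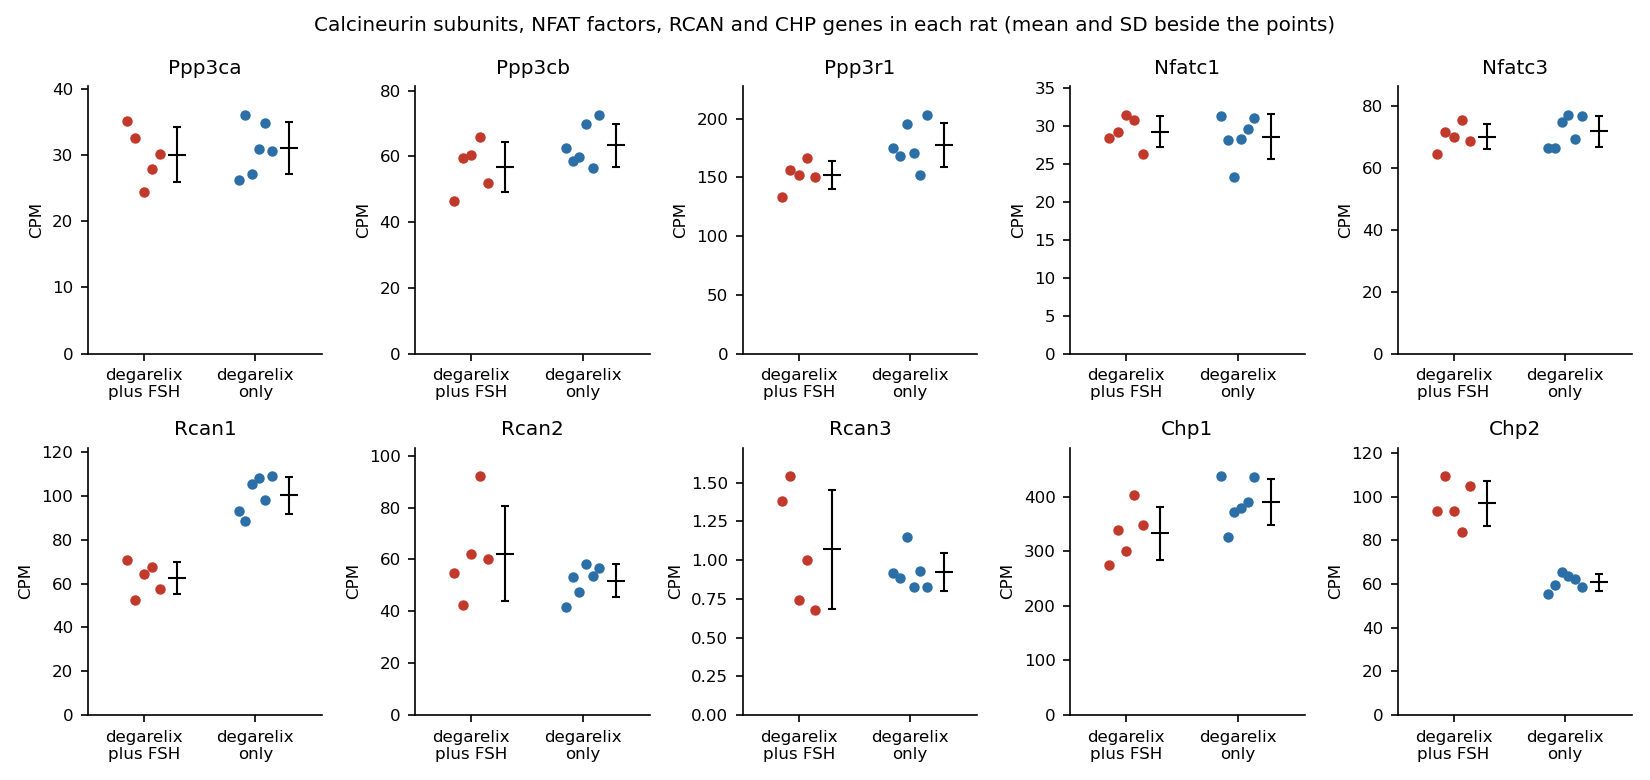
CPM of each of the 10 genes in every rat (points), with the group mean and SD beside them, degarelix plus FSH left of degarelix only, 1 panel per gene and axes that start at 0. The 2 groups are separate for Rcan1, which was lower with FSH, and for Chp2, which was higher, and they overlap in the other 8 panels.

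The catalytic and regulatory subunits differed little between the groups. Ppp3r1 (ENSRNOG00000043210), the calcium-binding B subunit that most tissues use, had 134, 156, 152, 166 and 150.1 CPM in the 5 FSH rats, against 152 to 203 CPM (median 173) in the degarelix only rats. Its mean was 152 ± 11.8 CPM with FSH and 177 ± 18.9 CPM with degarelix only, a log2 change of -0.23 ± 0.08 (SE), and 2 FSH rats lay below the lowest degarelix only rat. Ppp3cb (ENSRNOG00000054782), the beta catalytic subunit, had 46.3, 59.5, 60.4, 65.9 and 51.8 CPM with FSH and 56.6 to 72.7 CPM (median 61.1) with degarelix only. The groups overlapped, with means of 56.8 ± 7.72 CPM with FSH and 63.3 ± 6.50 CPM with degarelix only (log2 change -0.16 ± 0.10). Ppp3ca (ENSRNOG00000009882), the alpha catalytic subunit, had 35.2, 32.6, 24.4, 27.8 and 30.1 CPM with FSH, against 26.3 to 36.1 CPM (median 30.8) with degarelix only. Its log2 change of -0.05 ± 0.11 was smaller than its error, and its sign turned without degarelix only replicate 2 or FSH replicate 3. Pseudogene copies of Ppp3r1, Ppp3cb and Chp1 are listed in RefSeq, and the counting rule for shared reads is not given in the sources used here, so the levels of these 3 genes are uncertain.

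Neither NFAT gene among the 10 separated the groups. Nfatc3 (ENSRNOG00000054264), an NFAT factor of broad expression, varied least of the 10 among the FSH rats, with 64.4, 71.5, 70.0, 75.4 and 68.6 CPM with FSH and 66.2 to 77.1 CPM (median 72.1) with degarelix only. The coefficient of variation between rats was 5.74% with FSH and 7.00% with degarelix only. Nfatc1 (ENSRNOG00000017146), known from heart valve and bone-resorbing cells, had 28.3, 29.2, 31.5, 30.8 and 26.4 CPM with FSH, against 23.3 to 31.3 CPM (median 28.9) with degarelix only. The log2 change was -0.04 ± 0.06 for Nfatc3 and 0.03 ± 0.08 for Nfatc1, and that of Nfatc1 turned sign without degarelix only replicate 3.

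Rcan1 (ENSRNOG00000001979) was lower with FSH. It had 70.6, 52.4, 64.5, 67.5 and 57.6 CPM in the 5 FSH rats, against 88.8 to 109 CPM (median 102) in the degarelix only rats. Every FSH rat lay below every degarelix only rat. The means were 62.5 ± 7.39 CPM with FSH and 100.3 ± 8.42 CPM with degarelix only, 0.623 times the degarelix only level in the fit (log2 change -0.68 ± 0.09). With 1 of the 11 libraries left out, the log2 change lay between -0.73 and -0.63.

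Its paralogs did not follow it. Rcan2 (ENSRNOG00000010350), the family member known from brain and muscle and found in human cells as a thyroid hormone responsive gene, had 54.7, 42.3, 61.9, 92.1 and 60.2 CPM with FSH and 41.5 to 58.2 CPM (median 53.5) with degarelix only. The FSH rats spread over a coefficient of variation of 29.5%, against 12.1% in the degarelix only rats, with FSH replicate 4 highest and FSH replicates 1 and 2 inside the degarelix only range. The log2 change was 0.26 ± 0.16, and 0.08 without FSH replicate 4. Rcan3 (ENSRNOG00000018576) was near the detection limit, with 10 to 25 counts per library. It had 1.38, 1.54, 0.743, 1.00 and 0.679 CPM with FSH and 0.828 to 1.15 CPM (median 0.902) with degarelix only, so that FSH rats lay on both sides of the degarelix only range.

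Within the RCAN family, the share of counts that fell on Rcan1 does not depend on how libraries are scaled. That share was 50.3 ± 5.44% with FSH (42.0 to 55.7%) and 65.6 ± 2.56% with degarelix only (62.1 to 68.6%), and the ranges were separate. Rcan1 was chosen on this comparison, so its share is a description and no further support for the difference. Rcan2 held 48.8 ± 5.76% with FSH and 33.8 ± 2.62% with degarelix only. Its share mostly mirrors that of Rcan1, because Rcan3 had only 10 to 25 counts per library. These are shares of counts and not of molecules, because transcript lengths were not available. The exact 95% binomial interval of a single rat spanned at most 5.00 percentage points, which covers counting error only.

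The bases upstream of the Rcan1 and Rcan2 starts are shown because Rcan1 alone of this pair was past the threshold and is a known NFAT target. They are RefSeq sequences of build GRCr8, not the rn6 build named in the submitters' processing notes, and give the 250 bases before the start that RefSeq lists. Capitals mark the NFAT core GGAAA on either strand (TTTCC on the strand shown).

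Rcan1, chr11:45118237-45118486, minus strand: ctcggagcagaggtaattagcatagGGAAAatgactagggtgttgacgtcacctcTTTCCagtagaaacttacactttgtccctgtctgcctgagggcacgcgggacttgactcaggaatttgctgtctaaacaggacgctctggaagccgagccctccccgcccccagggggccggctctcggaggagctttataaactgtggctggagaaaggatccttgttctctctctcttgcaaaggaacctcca

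Rcan2, chr9:24672190-24672439, minus strand: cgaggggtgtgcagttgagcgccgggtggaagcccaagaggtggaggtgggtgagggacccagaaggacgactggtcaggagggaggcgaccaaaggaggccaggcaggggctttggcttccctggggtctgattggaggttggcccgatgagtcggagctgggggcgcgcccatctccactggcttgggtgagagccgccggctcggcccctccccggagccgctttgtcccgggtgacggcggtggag

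The Rcan1 window held 2 GGAAA cores and the Rcan2 window held 0, and the Rcan2 window held 1 TGACG. Between the 2 cores of Rcan1 lies tgacgtca, the palindromic form of a cAMP response element, which the search for TGACG on both strands counted as 2 matches. The windows of Rcan1 and Rcan2, and also that of Chp2, lie inside the genes' annotated spans. Of all 33469 RefSeq windows of this length, 56.9% held GGAAA on either strand, 22.9% held at least 2, and 18.2% held TGACG. Of the 10 genes, 8 had a window in the RefSeq table, and 4 of these held GGAAA (Rcan1, Rcan3, Ppp3cb and Ppp3r1). A match of these letters is a description of the sequence and not a binding site.

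Chp2 (ENSRNOG00000019112) was higher with FSH. It had 93.2, 109, 93.5, 83.5 and 105 CPM in the 5 FSH rats, against 55.2 to 65.5 CPM (median 60.8) in the degarelix only rats. Every FSH rat lay above every degarelix only rat. The means were 96.9 ± 10.2 CPM with FSH and 60.7 ± 3.79 CPM with degarelix only (log2 change 0.67 ± 0.07). With 1 library left out, the log2 change lay between 0.63 and 0.72. In human tissue CHP2 is best known from intestinal epithelium. The listed intestinal markers Vil1, Cdx2 and Fabp2 had no count in any library and Epcam had at most 4, where 0 counts allow up to 0.127 to 0.223 CPM depending on the library (3 counts).

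Chp1 (ENSRNOG00000004742), the widely expressed paralog and in human and mouse cells a cofactor of the acyltransferase Gpat4, had 275, 339, 300.1, 403 and 348 CPM with FSH and 325 to 438 CPM (median 385) with degarelix only. The groups overlapped, with 2 FSH rats below the lowest degarelix only rat. Means were 333 ± 48.9 CPM with FSH and 390.2 ± 42.6 CPM with degarelix only (log2 change -0.23 ± 0.11). Chp2 took 22.7 ± 3.22% of the counts of the CHP pair with FSH (17.2 to 25.3%) and 13.6 ± 1.72% with degarelix only (11.2 to 15.4%). The ranges were separate, and the lowest FSH share was that of replicate 4, which had both the lowest Chp2 and the highest Chp1 level of its group. Chp2, too, was chosen on this comparison, so its share is a description. The upstream windows of the CHP pair are shown because Chp2 alone of this pair was past the threshold. They held no GGAAA, and that of Chp1 held 1 TGACG.

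Chp1, chr3:126989575-126989824, plus strand: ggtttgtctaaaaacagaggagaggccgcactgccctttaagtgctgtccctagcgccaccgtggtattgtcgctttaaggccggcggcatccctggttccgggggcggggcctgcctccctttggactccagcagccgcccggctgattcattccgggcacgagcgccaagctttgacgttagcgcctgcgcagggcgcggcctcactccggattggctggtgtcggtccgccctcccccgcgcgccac

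Chp2, chr1:186199959-186200208, plus strand: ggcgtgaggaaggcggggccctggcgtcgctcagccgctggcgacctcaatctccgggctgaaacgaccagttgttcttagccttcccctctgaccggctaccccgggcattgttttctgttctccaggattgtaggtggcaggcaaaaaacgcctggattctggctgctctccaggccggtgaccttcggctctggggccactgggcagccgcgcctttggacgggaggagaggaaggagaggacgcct

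**Figure D2:**
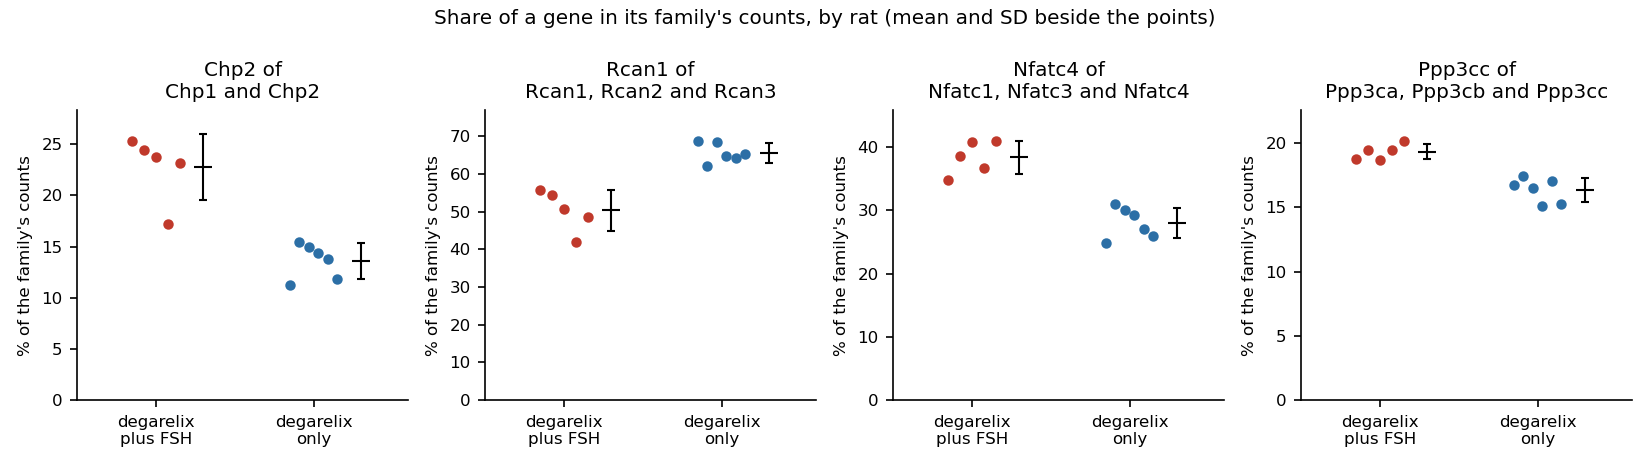
Share of a family's counts that fell on 1 gene, in percent, in every rat (points), with the group mean and SD beside them, degarelix plus FSH left of degarelix only. The groups are separate in the 4 panels drawn, higher with FSH for Chp2, Nfatc4 and Ppp3cc and lower for Rcan1. Of the shares not drawn, those of Ppp3ca and Ppp3cb overlapped between the groups and that of Rcan2 did not. Rcan1 and Chp2 were chosen on this comparison.

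Genes of the same pathway outside the 10 were taken from lists of 82 genes, of which 80 matched the table and 60 were tested in the same fit. These lists, too, were chosen with earlier results of these data known, so their counts are a description. Of the 60, 1 was higher (Nfatc4) and 1 lower (Cabin1) past an adjusted p of 0.05 over all genes, against 2.27% of all genes tested. Their median log2 change was 0.02, and that of all genes tested was 0.01. At an unadjusted p under 0.05, 13 of the 60 passed, where 2904 of all 12846 genes did. The count of 2 depended on the method, being 9 with DESeq2 and 1 to 4 with a library left out.

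Nfatc4 (ENSRNOG00000020482), an NFAT factor known from nerve, vessel wall and fat, had 49.5, 63.3, 70.2, 61.5 and 65.8 CPM in the FSH rats, against 32.3 to 43.6 CPM (median 39.9) in the degarelix only rats. Every FSH rat lay above every degarelix only rat. It rose to 62.0 ± 7.74 CPM with FSH, against 39.1 ± 4.35 CPM with degarelix only (log2 change 0.66 ± 0.10, edgeR adjusted p = 0.00980). Its level was highest in FSH replicate 3, the library with high Sox10; without that library the log2 change was 0.62 (adjusted p = 0.0278), and the call stood with any of the 11 libraries left out (adjusted p 0.00828 to 0.0381). Of the counts on Nfatc1, Nfatc3 and Nfatc4, Nfatc4 took 38.4 ± 2.67% with FSH and 28.0 ± 2.41% with degarelix only. Nfat5, the calcineurin-independent family member that responds to osmotic stress, had a log2 change of 0.06 ± 0.07 (adjusted p = 0.621). Nfatc2 had at most 7 counts in any library and was not tested.

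Cabin1 (ENSRNOG00000001237), a nuclear protein that binds and inhibits calcineurin and also serves in histone deposition, had 62.2, 49.7, 50.4, 55.1 and 53.5 CPM with FSH and 62.5 to 92.1 CPM (median 72.7) with degarelix only. The groups did not overlap, but the highest FSH rat and the lowest degarelix only rat nearly met. It fell to 54.2 ± 5.00 CPM with FSH, against 75.5 ± 12.4 CPM with degarelix only (log2 change -0.48 ± 0.11, edgeR adjusted p = 0.0449). Leaving out 1 library kept the call in 2 of 11 cases (degarelix only replicate 4, FSH replicate 4), and the adjusted p was at most 0.107, without FSH replicate 2. The call was also lost with upper-quartile scaling (adjusted p = 0.0523) and without a low-count filter (adjusted p = 0.0510).

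**Figure D3:**
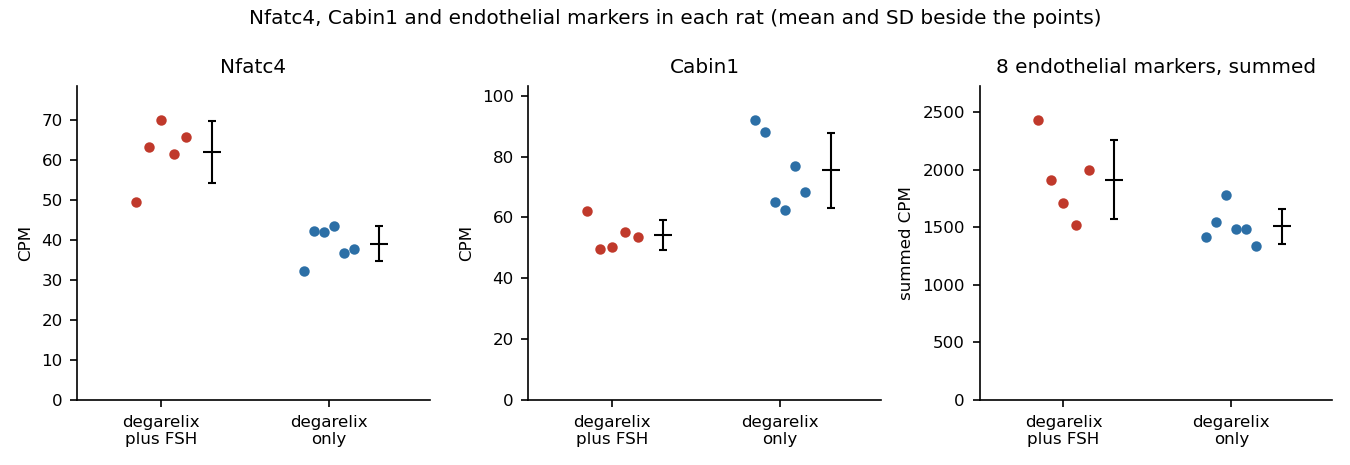
CPM of Nfatc4 and Cabin1 and the summed CPM of 8 endothelial markers in every rat (points), with the group mean and SD beside them, degarelix plus FSH left of degarelix only. Nfatc4 is higher and Cabin1 lower in all 5 FSH rats, and the endothelial sums overlap between the groups.

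The third catalytic subunit, Ppp3cc, is best known from testis and did not pass. It had 18.9, 22.3, 19.5, 22.7 and 20.6 CPM with FSH and 17.2 to 20.0 CPM (median 18.3) with degarelix only (log2 change 0.18 ± 0.07, adjusted p = 0.154). Its share of the catalytic subunit counts was 19.3 ± 0.580% with FSH (18.7 to 20.1%) and 16.3 ± 0.941% with degarelix only (15.1 to 17.4%), so that the shares were separate while the levels overlapped. Ppp3cb held the largest share in both groups, 52.6 ± 4.75% with FSH and 56.1 ± 3.89% with degarelix only. The groups overlapped in this share, and also in that of Ppp3ca. The testis B subunit Ppp3r2 had 0 counts in every library.

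Of 8 tested binders, anchors and immunophilins, 1 passed, Cabin1. The most abundant were the drug-binding immunophilins: Ppia, the cyclosporin target, had 865 ± 81.1 CPM with FSH and 923 ± 124 CPM with degarelix only (log2 change -0.09 ± 0.10), and Fkbp1a, the tacrolimus target, had a log2 change of -0.04 ± 0.07. The calcineurin-binding Fkbp8 had a log2 change of -0.03 ± 0.06. None of 14 calmodulin and calcium channel genes passed, where 3 had an unadjusted p under 0.05. Calm3, which encodes calmodulin, had a log2 change of -0.15 ± 0.11, and the calcium sensor Stim1 had -0.07 ± 0.06.

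None of 11 kinases that oppose calcineurin at NFAT or related sites passed, where 3 had an unadjusted p under 0.05. The most abundant, the stress-activated kinase Mapk14, had 128, 129.6, 134, 130.4 and 120.3 CPM with FSH and 140.1 to 153 CPM (median 146) with degarelix only. Its groups did not overlap, yet the log2 change was small at -0.19 ± 0.05 (adjusted p = 0.0635). Csnk1d and Csnk1a1, kinases of the CK1 family, had -0.01 ± 0.06 and 0.06 ± 0.05. None of 12 other substrates passed, where 3 had an unadjusted p under 0.05. The CREB coactivator Crtc2 had a log2 change of 0.08 ± 0.05, Mef2c 0.05 ± 0.13 and the lysosome regulator Tfeb 0.13 ± 0.08. Of the 12 substrates, 5 lay above 0 and 7 below, with a median log2 change of -0.14. The largest change was that of Tfe3, at -0.45 ± 0.11 (adjusted p = 0.0550). Among the 60 genes, groups did not overlap at 4 (Nfatc4, Cabin1, Mapk14 and Dnm1l), against 4.34% of all genes tested. Dnm1l, the mitochondrial fission GTPase that calcineurin dephosphorylates, was named after its values were seen and had a log2 change of -0.36 ± 0.10 (adjusted p = 0.0800).

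None of the 7 NFAT target genes tested passed, and none had an unadjusted p under 0.05. Most were known from T cells or osteoclasts. The coagulation starter F3 (tissue factor) had 235 ± 47.3 CPM with FSH and 174 ± 60.0 CPM with degarelix only (log2 change 0.43 ± 0.22, adjusted p = 0.266), the phosphatase Acp5 had 0.58 ± 0.30 (adjusted p = 0.271) and the adhesion molecule Vcam1 had 0.18 ± 0.19 (adjusted p = 0.606). The cytokine genes Il2, Il3, Il4 and Tnf had 0 counts in every library. None of 5 partners of the CHP proteins passed, where 1 had an unadjusted p under 0.05. Gpat4, the acyltransferase that Chp1 serves, had a log2 change of -0.09 ± 0.06 (adjusted p = 0.372), and the kinesin Kif1b had -0.47 ± 0.14 (adjusted p = 0.0881).

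**Figure D4:**
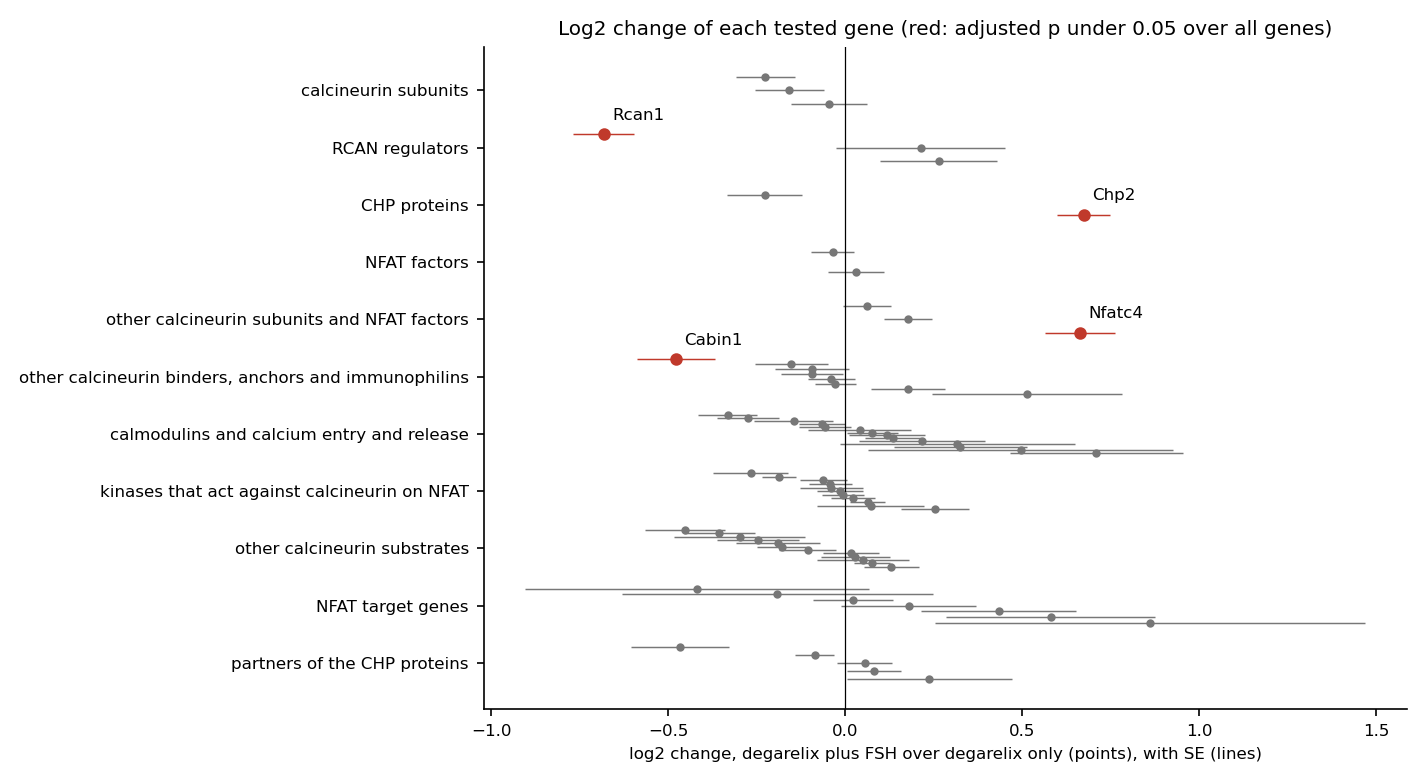
Log2 change, degarelix plus FSH over degarelix only, of each of the 10 genes and the 60 other pathway genes tested (points), with the SE (lines), grouped by role. Red points passed an adjusted p of 0.05 over all genes: Chp2 and Nfatc4 to the right of 0 and Rcan1 and Cabin1 to the left.

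Cell type markers were summed per rat beside these results. Of 13 marker lists, 0 passed after adjustment (exact permutation of the rats between groups, two-sided), and 1 had an unadjusted p under 0.05. That was the endothelial list, with 1917 ± 346 CPM in the FSH rats (1520.3 to 2437 CPM) and 1509 ± 152 CPM in the degarelix only rats (1335 to 1781 CPM; exact permutation p = 0.0238, adjusted p = 0.310). All 8 of its matched members lay higher with FSH, none was near 0, and 1 passed the threshold over all genes (Tek, log2 change 0.44 ± 0.10, edgeR adjusted p = 0.0431). The junction gene Cdh5, which did not pass, was at 689 ± 149 CPM with FSH and 556 ± 63.2 CPM with degarelix only. FSH replicate 4 had the lowest endothelial sum of its group, and its sum and that of FSH replicate 3 (1709 CPM) lay inside the degarelix only range. In FSH replicate 4 Chp2 was at 83.5 CPM, its lowest among the FSH rats, Nfatc4 at 61.5 CPM and Rcan1 at 67.5 CPM. In FSH replicate 1, with the highest sum, Chp2 was at 93.2 CPM. Nfatc4 was at 49.5 CPM there, its lowest among the FSH rats, and Rcan1 at 70.6 CPM, its highest among them. The part of endothelial RNA in the differences of Chp2, Nfatc4, Rcan1 and Cabin1 was not tested.

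None of the other lists had an unadjusted p under 0.05. Adipocyte markers summed to 55304 ± 5479 CPM with FSH and 55730 ± 5278 CPM with degarelix only (exact permutation p = 0.900). Smooth muscle and pericyte markers held 855 ± 137 CPM and 763 ± 90.0 CPM, stromal and progenitor markers 1546 ± 306 CPM and 1490.4 ± 227 CPM, and macrophage markers 216 ± 62.9 CPM and 215 ± 72.2 CPM, with FSH and with degarelix only in that order. T and NK cell markers were sparse (34.6 ± 11.9 CPM with FSH and 38.6 ± 12.3 CPM with degarelix only), as were those of B cells (1.01 ± 0.390 CPM and 0.889 ± 0.462 CPM in the same order). Cd4 made up most of the T and NK cell sum (25.7 and 28.9 CPM), and Cd3e was at 2.27 and 2.21 CPM. Skeletal muscle markers held 9.42 ± 1.02 CPM with FSH and 10.4 ± 2.11 CPM with degarelix only, most of it Tnnt3 (8.85 and 9.99 CPM). Adrenal cortex markers held 54.8 ± 15.1 CPM and 59.7 ± 11.2 CPM in the same order. That sum was made up of Mc2r (38.1 and 34.8 CPM) and Star (16.7 and 24.8 CPM). Cyp11b2 had 0 counts in every library, and Cyp11b1 and Hsd3b1 were not matched. Mesothelium markers held 4.85 ± 5.12 CPM with FSH and 3.33 ± 2.20 CPM with degarelix only. Kidney tubule markers were at 0.297 CPM or less and intestinal markers likewise. The nerve and Schwann cell list was dominated by S100b, which lay between 3007 and 5161 CPM in every library and is also made by fat cells. Without FSH replicate 3, the log2 change was -0.69 for Rcan1 and 0.69 for Chp2.

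The genes whose levels ran most like Rcan1 from rat to rat were sought after each group's mean was taken out, by Pearson correlation of log2 CPM over the 11 rats among 11497 genes with a mean of at least 1 CPM. They were Ctc1, Specc1l, Parn, Nfkb1 and Llgl1, with r between 0.87 and 0.88. None of these differed between the groups past the threshold, with log2 changes of -0.09 to 0.11, against -0.68 for Rcan1. The 5 genes most like Chp2 were Tnfsf10, Myo1g, Themis2, RT1-M3-1 and Atrx, with r between 0.92 and 0.96 and log2 changes of -0.10 to 0.23, none past the threshold. These are the highest of many correlations over few rats and are given as a description.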

How the data were processed

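RNA from retroperitoneal fat was sequenced from 11 rats, 1 library each. The deposited values are raw counts for Ensembl genes, not normalized. Build rn6 and the tools STAR, edgeR and DESeq2 are named in the submitters' processing notes, without versions or roles. Counter, annotation release and strand setting: not given in the sources used here. Columns were matched to rats by the labels. The table had 25275 rows, and Pcmt1 was left out because 1 cell holds a letter. No 2 libraries agreed within sampling noise (lowest chi-square per degree of freedom 21.3).

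The counts were fitted with edgeR 4.0.16 in R 4.3.3 (filterByExpr, TMM, 1 group term, robust quasi-likelihood test with 9 residual degrees of freedom, two-sided), with Benjamini-Hochberg adjustment over all 12846 genes tested and a threshold of 0.05. Standard errors were derived from the F statistic. CPM are relative to the TMM-scaled totals. A count of 0 allows up to 3 counts, and such limits cover counting error only.

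The 10 genes and all lists were chosen with earlier results of these data known. Of 170 listed symbols, 163 matched and 7 did not. The genes named were the 10, every other listed gene past the threshold, up to 3 of highest mean CPM per list, the 5 most alike to Rcan1 and to Chp2, and leading members of the 13 marker lists. Some genes that this rule names are not reported here, and Dnm1l, Itpr3, Ppp1r1b, Slc9a3, Nfatc2, Ppp3r2, Tek, the genes called by DESeq2 and the cytokine genes at 0 counts were added after their values were seen. Upstream sequences are from RefSeq (GRCr8). Alternatives were other scalings and filters, DESeq2 1.42.0, limma-voom (limma 3.58.1), each library left out, and the replicate number as a block. The edgeR step was tested on simulated data.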

Additional observations from a re-analysis of the deposited data

Results flagged for a closer look

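In 64 groups of 5 or 6 rats, the gap of the highest or lowest rat to its neighbour was set against the group's range (Dixon's 95% limit), and 5 groups exceeded the limit. Chance alone gives about 1 in 20 such groups.

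Rcan3 was 1.15 CPM in degarelix only replicate 3, where the 5 others of its group had 0.828 to 0.929 CPM, at 10 to 25 counts per library. The Chp2 share of the CHP counts was 17.2% in FSH replicate 4 (exact 95% binomial interval 16.4 to 18.0%), against 23.1 to 25.3% in the other FSH rats. It was still above the highest degarelix only rat, at 15.4%.

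The 3 others were marker sums of FSH replicate 3. Nerve and Schwann cell markers summed to 11398 CPM there, against 3064 to 4369 CPM in the other FSH rats. Mesothelium markers summed to 14.0 CPM, against 2.04 to 3.36 CPM, and skeletal muscle markers to 11.2 CPM, against 8.68 to 9.13 CPM. Of that skeletal muscle sum, Tnnt3 held 10.7 CPM and Acta1 0.149 CPM. Without this library Nfatc4 kept its call.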

How the results depend on the processing

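Nfatc4 kept direction and call under all 18 alternatives. The count of 292 genes past the threshold was 1135 with DESeq2, 14 with the replicate block, and 30 to 551 with 1 library left out. Of the 60 other pathway genes, 2 passed, against 1 with upper-quartile factors, 1 without a low-count filter and 1 with the replicate block (Cabin1 lost in each), 9 with DESeq2 and 1 to 4 with a library left out. The 9 were Nfatc4, Cabin1, Orai3, Stim2, Itpr3, Mapk14, Tfe3, Dnm1l and Kif1b. The cause was not tested. Of the 10 genes chosen on this comparison, 2 were past the threshold, and 1 (Rcan1) with the replicate block. Chp2, with a log2 change of 0.66 in that fit, was then not past it. Rats of the same number did not deviate together (correlations of -0.11 to 0.13 over genes, and 0 of 5 FSH rats closest to their own number). Whether the number stands for any shared handling was not tested, and the labels do not say. Ppp3ca turned to 0.0015 without degarelix only replicate 2 and to 0.018 without FSH replicate 3, and Nfatc1 to -0.021 without degarelix only replicate 3 (range with a library left out -0.021 to 0.066). The other 8 genes kept their sign under each alternative run (for Rcan3 the filter of 1 CPM in 5 libraries gave no value). No marker list passed under DESeq2 or upper-quartile size factors or with a library left out. The differences of 5 marker sums (FSH minus degarelix only, CPM) turned sign with a library left out, ranging from -2642 to 1249.9 for adipocytes, -46.1 to 155 for stromal cells, -23.8 to 27.5 for macrophages (-0.13 with DESeq2 size factors), -0.758 to 2.33 for mesothelium and -720.3 to 1363 for nerve. Rcan3, at 10 to 25 counts, is limited by depth.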

Other observations

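A pair of pathway genes that stayed below the low-count filter had most of their counts in FSH replicate 3, the library with high Sox10. Ppp1r1b, the phosphatase inhibitor that calcineurin dephosphorylates in striatal neurons, had 104 counts there, against 3 to 9 in the other FSH rats and 2 to 11 in the degarelix only rats. Slc9a3, an epithelial sodium/proton exchanger and CHP partner, had 46 counts there, against 0 or 1 in the other FSH rats and 0 to 2 in the degarelix only rats. Itpr3, an inositol trisphosphate receptor that was tested, was also highest in that library, at 68.0 CPM. The remaining FSH rats had 22.2 to 36.9 CPM, against 19.6 to 25.9 CPM in the degarelix only rats (edgeR log2 change 0.71 ± 0.25, adjusted p = 0.126). The log2 change of Itpr3 without that library is not reported here.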
